A study of Mus musculus with 22 samples.

Results

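The regions described here are the 725 places on chromatin of the mouse nucleus accumbens where the authors called a peak of the transcription factor E2F3a in mice that had received saline and no drug. All rows of the saline peak list were taken, with no selection on height, and they are 725 of the 4192 peaks in the saline and cocaine lists together. CUT&RUN was the assay. A nuclease tethered to the antibody cuts around the bound protein, and the fragments that leave the nucleus mark occupied places. The mice were wild type C57BL/6J, female and male, and were injected for 7 days in the home cage with cocaine at 20 mg/kg or with saline. Nuclei came from frozen bilateral 12-gauge punches of the nucleus accumbens, a ventral striatal region of reward processing, and were split between an antibody to E2F3a (diluted 1 in 50) and non-specific immunoglobulin G, or IgG (diluted 1 in 100). With the E2F3a antibody there were 7 cocaine libraries, from 2 females and 5 males as labelled, and 4 saline libraries, 2 of each sex. With IgG there were 4 cocaine and 5 saline libraries. A further 2 IgG libraries have a title and a treatment label that name different treatments, and they entered no comparison. The labels do not give the ages of the mice or the number of mice behind a library.

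The saline list pools both sexes, so a peak has no replicate value and no SD, and the read depth behind it is not known. A share of peaks carries an exact (Clopper-Pearson) 95% interval, which covers counting error only. The IgG libraries were not analysed here. The nuclei were bulk tissue, so strong occupancy in few nuclei and weak occupancy in many cannot be told apart. No expression was measured, so the labelled tissue could not be checked against the RNA of its marker genes.

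E2F proteins bind DNA as dimers with a DP partner and are best known for switching on genes of DNA replication, histone supply and cell division at the entry to S phase. E2F3a is the longer product of the E2F3 gene, is counted among the activating E2Fs and is held in check by the retinoblastoma protein. Neurons of the adult nucleus accumbens have left the cell cycle for good, while its glial cells can still divide. The classical E2F site is a short run of thymines followed by a block of cytosines and guanines, usually close upstream of the gene start.

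The promoters that the results turn on are shown as windows of 300 bases, from 250 before the gene start to 50 after it, from RefSeq on GRCm38.p6, the assembly that mm10 names. Each overlapped a saline peak. Capitals mark a match to an 8-letter E2F site (TTTCCCGC, TTTGGCGC, TTTCGCGC or TTTGCCGC on either strand) or to the cAMP response element (CRE), TGACGTCA, the palindrome bound by CREB and ATF proteins. The set holds the gene start with the highest enrichment, the next ones that held a CRE, and the replication and splicing genes that held E2F sites. Zfp619 lies at chr7:39517516-39517815 on the plus strand, Ptprs at chr17:56476431-56476730 on the minus strand, Tiprl at chr1:165236911-165237210 on the minus strand, Mcm5 at chr8:75109259-75109558 on the plus strand, Srsf10 at chr4:135855821-135856120 on the plus strand and Mcm7 at chr5:138171834-138172133 on the minus strand. Thoc6, the gene start with the highest enrichment among peaks that overlapped no cocaine peak, lies at chr17:23673828-23674127 on the minus strand.
Zfp619: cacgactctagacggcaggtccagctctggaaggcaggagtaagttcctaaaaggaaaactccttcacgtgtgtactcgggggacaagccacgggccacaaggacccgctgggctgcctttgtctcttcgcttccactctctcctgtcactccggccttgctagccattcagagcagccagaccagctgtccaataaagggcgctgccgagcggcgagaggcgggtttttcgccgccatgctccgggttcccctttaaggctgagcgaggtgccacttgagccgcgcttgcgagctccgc
Ptprs: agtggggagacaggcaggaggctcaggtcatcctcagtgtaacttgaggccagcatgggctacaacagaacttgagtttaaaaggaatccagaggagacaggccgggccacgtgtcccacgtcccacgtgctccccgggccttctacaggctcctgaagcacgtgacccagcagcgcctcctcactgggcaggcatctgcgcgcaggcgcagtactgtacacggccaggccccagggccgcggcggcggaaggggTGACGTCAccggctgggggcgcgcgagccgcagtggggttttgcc
Tiprl: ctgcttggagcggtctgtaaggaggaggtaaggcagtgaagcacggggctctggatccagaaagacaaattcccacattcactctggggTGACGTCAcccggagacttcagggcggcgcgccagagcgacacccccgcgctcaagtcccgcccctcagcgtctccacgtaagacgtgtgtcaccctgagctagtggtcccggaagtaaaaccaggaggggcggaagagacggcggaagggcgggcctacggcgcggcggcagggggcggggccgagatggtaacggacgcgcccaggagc
Mcm5: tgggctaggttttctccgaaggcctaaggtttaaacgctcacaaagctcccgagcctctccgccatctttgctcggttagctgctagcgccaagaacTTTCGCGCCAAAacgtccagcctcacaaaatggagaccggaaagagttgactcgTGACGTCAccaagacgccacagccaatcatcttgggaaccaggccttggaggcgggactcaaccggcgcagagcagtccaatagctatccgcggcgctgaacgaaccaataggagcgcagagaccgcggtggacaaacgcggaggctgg
Srsf10: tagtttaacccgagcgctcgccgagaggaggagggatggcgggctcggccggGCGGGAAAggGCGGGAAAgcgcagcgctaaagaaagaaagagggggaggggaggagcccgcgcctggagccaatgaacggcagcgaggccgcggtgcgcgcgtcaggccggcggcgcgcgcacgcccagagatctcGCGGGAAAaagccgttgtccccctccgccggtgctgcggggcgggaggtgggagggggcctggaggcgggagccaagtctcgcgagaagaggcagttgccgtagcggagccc
Mcm7: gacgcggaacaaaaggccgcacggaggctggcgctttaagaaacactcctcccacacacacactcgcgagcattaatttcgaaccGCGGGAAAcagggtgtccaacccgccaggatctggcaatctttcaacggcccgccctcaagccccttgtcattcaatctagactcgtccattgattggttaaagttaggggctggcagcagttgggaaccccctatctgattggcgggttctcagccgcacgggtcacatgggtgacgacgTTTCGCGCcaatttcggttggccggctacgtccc
Thoc6: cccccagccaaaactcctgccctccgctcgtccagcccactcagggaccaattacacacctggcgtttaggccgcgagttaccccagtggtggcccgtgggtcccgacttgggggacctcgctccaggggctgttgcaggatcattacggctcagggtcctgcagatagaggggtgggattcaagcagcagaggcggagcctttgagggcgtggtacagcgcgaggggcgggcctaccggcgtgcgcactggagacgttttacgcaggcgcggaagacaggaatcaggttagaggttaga
The Mcm5 window held a pair of E2F sites that overlap on opposite strands, which reads as the single run TTTCGCGCCAAA, and a CRE downstream of it. The Srsf10 window held 3 E2F sites and the Mcm7 window held 2, one of them downstream of the gene start. The Ptprs and Tiprl windows held 1 CRE each and no 8-letter E2F site, and the Zfp619 and Thoc6 windows held no match to either.

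Enrichment was modest at most saline peaks and high at a few. The authors gave each peak a fold enrichment over the background of the peak caller, which is a value of that peak and not a change between groups. It ran from 1.18 to 24.95 with a median of 3.82 (interquartile range 2.98 to 4.68). A fold of at least 2 was given to 687 peaks, at least 5 to 138, at least 8 to 19 and at least 10 to 7. The median width was 535 bp, the narrowest peak measured 319 bp and the widest 12092 bp. The largest q in the list was 0.00976.

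The 5 peaks with the highest fold all lay more than 1 kb from a listed start of a protein-coding gene. The highest, 24.95, lay in the body of Ajap1, which encodes a membrane protein of adherens junctions (chr4:153397258-153397764). The second, at 16.2, lay inside Dapk1, a calcium/calmodulin-dependent kinase of cell death (chr13:60680982-60682122). The third, at 15.1, lay inside Ttc34 (chr4:154840740-154852831) and was the widest of the list. A peak between genes followed at 12.7, 8449 bp from the predicted gene Gm45988. Mxi1, which encodes a MAX partner that opposes MYC, had the next at 12.2, in its gene body and 3833 bp upstream of the listed start. Peaks over 10 were also found 540 bp from Lmod1, at 11.9, and 249 bp from an end of Scyl2, at 10.5. The Scyl2 peak was the one of these 7 that overlapped no cocaine peak.

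The peak's −log10 q, the strength of the evidence against background, ranked the peaks in another order than the fold did. Of the 20 peaks with the largest −log10 q, 8 lay on sequence not placed on a chromosome and 6 in a block at the start of the assembled part of chromosome 9. Another 2 lay in a block on chromosome 14 and 1 on chromosome 2. The peaks on unplaced sequence numbered 24, of which 19 were on a single unplaced contig, and had a median fold of 1.73 beside a median −log10 q of 101. The chromosome 9 block (chr9:3000536-3037928) held 10 peaks with a median fold of 1.66 and a −log10 q of up to 2676. The 5 lowest folds of the list, 1.18 to 1.33, came from these unplaced and block peaks, among them the peak at chr2:98666708-98667175 with 1.22. Only 2 peaks were among the 20 highest by both measures. Fold is therefore used below to describe peaks within the list, and peaks on unplaced sequence are left out of statements on genes. The peaks in the blocks on chromosomes 2, 9 and 14 stay in, and are counted as peaks between genes.

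**Figure D1:**
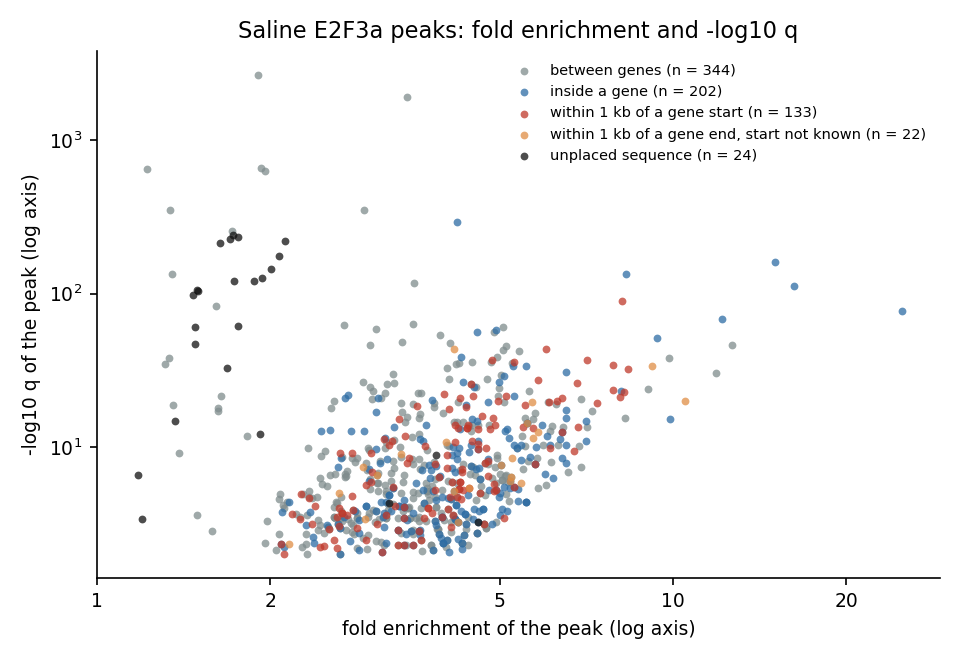
Fold enrichment (x, log axis) against −log10 q (y, log axis) of each of the 725 saline peaks, as the authors gave them, coloured by position. Peaks on unplaced sequence have a median fold of 1.73 and a median −log10 q of 101, though their folds run up to 4.59, at a −log10 q of 3.25. The highest fold, 24.95, belongs to a peak inside a gene.

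Most saline peaks lay away from gene starts, but gene starts held far more of them than their share of the genome. Of the 701 peaks on assembled chromosomes, 133 had their summit within 1 kb of the start of a protein-coding gene (19.0%, interval 16.1 to 22.1). Bases within 1 kb of such a start make up 1.40% of the assembled chromosomes. Inside a gene but not near a start lay 202 peaks (28.8%), and between genes 344 (49.1%, interval 45.3 to 52.8). The remaining 22 peaks (3.14%) lay within 1 kb of an end of a gene whose start was not in the table used, so either end may be the start. Starts were known for 79.9% of the 21900 protein-coding genes and for none on chromosome 18, which held 19 peaks, so the count at starts is a lower bound.

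Fold enrichment differed little between peaks at gene starts and in gene bodies. Its median was 4.13 at starts (interquartile range 3.22 to 4.81), 4.19 in gene bodies (3.35 to 5.01) and 3.54 between genes (2.83 to 4.43). The highest values lay outside the listed starts. The maximum was 8.36 at a start, against 24.95 in a gene body and 12.7 between genes. The 22 peaks near an end with no listed start had a median of 4.73 and a maximum of 10.5, and some of these may lie at starts. Peaks between genes lay a median of 70.3 kb from the nearest protein-coding gene, and 155 of the 344 (45.1%) lay more than 100 kb away. Of these 344 peaks, 51 lay inside an annotated gene that was not listed as protein-coding, 41 of them in a long non-coding RNA gene. Peaks in gene bodies lay a median of 31.5 kb from the nearest listed start.

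**Figure D2:**
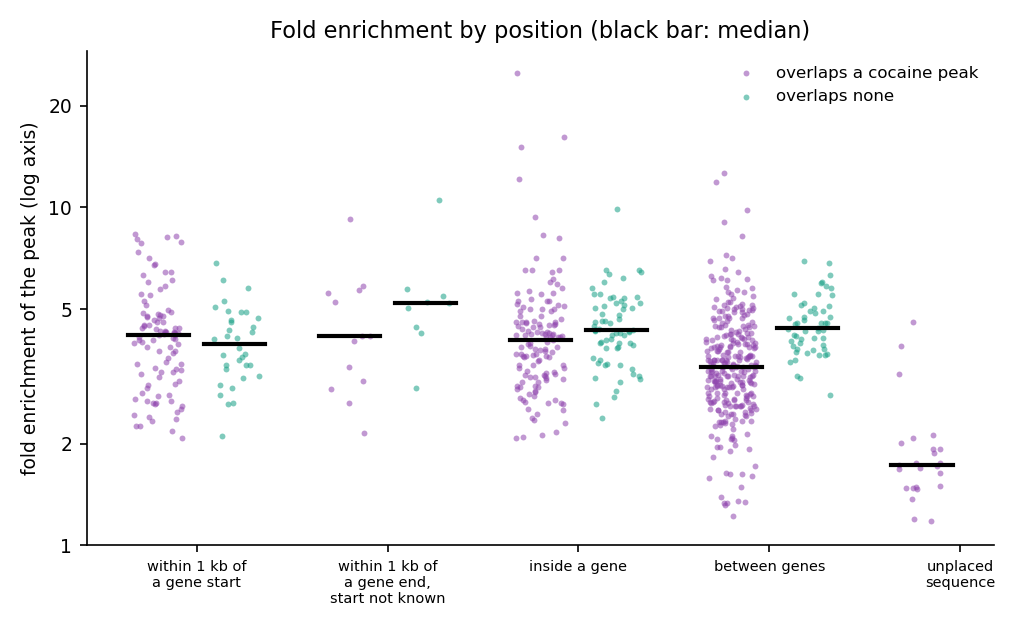
Fold enrichment (log axis) of every saline peak by position, split by overlap with the cocaine list, with black bars at the medians. The medians at starts and in gene bodies lie close together, at 4.13 and 4.19 over both colours, and the peaks on unplaced sequence all overlap a cocaine peak.

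The peaks at gene starts flanked the start on both sides. Of the 133 summits, 67 were upstream and 66 at or downstream of the start, and the median position was 8 bp upstream (interquartile range from 278 bp upstream to 148 bp downstream). The median distance was 206 bp, with 82 summits within 250 bp and 118 within 500 bp, but only 21 within 100 bp. Starts of genes on both strands lay within 1 kb of 26 of these peaks (19.5%). Over the 17492 protein-coding genes with a known start, 1594 (9.11%) had the start of a gene on the other strand within 1 kb. These shares are not counted alike. The share of peaks is centred on summits, so the starts can lie farther apart, and the share of genes on 1 start per gene. The pairs included Thoc6 and Hcfc1r1 at 6.84, Ppat and Paics at 4.87, both enzymes of purine synthesis, Mcm7 and Ap4m1 at 4.59, and Brca1 and Nbr1 at 2.26.

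**Figure D3:**
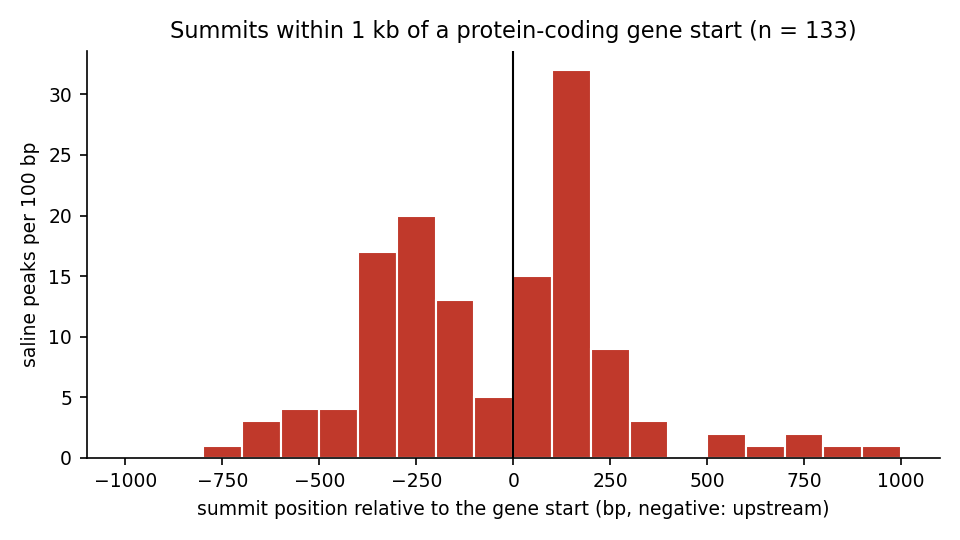
Position of the 133 summits within 1 kb of a protein-coding gene start, in bins of 100 bp, with negative values upstream. The summits form a group upstream and a group downstream, with 21 summits within 100 bp of the start.

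Among the peaks at gene starts, the highest folds belonged to genes with many kinds of function. Zfp619, a zinc finger gene, had 8.36 (chr7:39517684-39518224), Ap1s1, a subunit of a clathrin adaptor, 8.22, and Rccd1 8.15. Ptprs, which encodes a receptor tyrosine phosphatase of axon growth and synapses, had 8.08 (chr17:56475827-56476436). Tiprl, a regulator of PP2A-type phosphatases, had 7.88, Zfp687 7.86 and Anapc5, a subunit of the anaphase-promoting complex, 7.39. Mcm5 followed with 7.08 (chr8:75108786-75109337). Thoc6 of the mRNA export complex THO had 6.84, Zwint, a kinetochore partner, 6.82 and Ppp2ca, the catalytic subunit of PP2A, 6.74. Celf3, a neuronal RNA-binding protein, had 6.43, Ywhah, a 14-3-3 protein, 6.30, and Dusp1, a phosphatase that switches off MAP kinases after stimulation, 6.09. All of these but Thoc6 overlapped a cocaine peak. The names after Zwint are not a complete ranking, and the start peak of Pde12, at 6.11, overlapped none either.

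Genes of DNA replication were among those with a saline peak, though most of the genes on the replication list had none. For reading the counts, 389 of the 21900 protein-coding genes (1.78%) had a saline peak in the body or within 1 kb, and 190 (0.868%) had one within 1 kb of the start or of an end with no listed start. Of 25 genes of the MCM helicase and replication licensing, 3 had a peak. Mcm5 and Mcm7, subunits of the MCM helicase that unwinds DNA, had 7.08 and 4.59. Mcm4 of the same complex shared its peak with the divergent gene Prkdc, a DNA repair kinase, at 4.17 (chr16:15637606-15638051). Of 47 genes of DNA synthesis, repair and checkpoints, 4 had a peak, which were Prkdc, Chek1 at 4.05, Prim2 at 3.54 and Brca1 at 2.26. Chek1 encodes a checkpoint kinase, Prim2 a primase subunit and Brca1 a repair protein, and the Prim2 peak lay inside the gene rather than at its start. Of 28 cyclins, cyclin-dependent kinases and their inhibitors, Ccna2, cyclin A2, had a peak (5.21, 799 bp from an end). None of the 20 genes of the E2F and retinoblastoma families had one, E2f3 itself included.

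Replication-dependent histone genes had the highest share of any list or family counted. A peak was found at 15 of 63 such genes (23.8%), from 10 peaks, because many of these genes stand head to head. The folds were low within the list, with a median of 2.78 against 3.86 over all assembled peaks, and ran from 2.11 at H4c8 to 3.86 at H4c4. The H4 genes H4c4, H4c8, H4c12, H4c17 and H4c18 each had a peak. The pairs H2ac15 and H2bc15, H2bc23 and H2ac23, H2bc11 and H2ac11, and H2bc8 and H2ac8 shared 1 peak each. Another pair, H2ac18 and H3c14 on chromosome 3, shared a peak at 2.93. Copies of these genes are nearly identical in their coding sequence, so reads may have been placed on the wrong copy, and the single gene names are uncertain. Of the 10 peaks, 6 overlapped a cocaine peak. The genes were picked by symbol, which left out H2aw, with a peak at its start at 3.27. At that peak the authors' deposited table names H2ac25.

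Most of the histone peaks stood in 2 runs on chromosome 13. A run of 5 peaks spanned chr13:21750324-21832680 and one of 4 spanned chr13:23519203-23581781, the first of which lay 11811 bp from H4c8 and belonged to no histone gene. The peak of H2bc11 and H2ac11 on that chromosome was in neither run, and that of H2ac18 and H3c14 was on chromosome 3. Across the assembled chromosomes, 589 of 701 peaks had no other saline peak within 100 kb, 44 runs held 2 or more and 11 held 3 or more. A run of 4 at chr7:25237908-25279326 covered Gsk3a, Erf and Cic, with folds of 3.12 to 4.85. Gsk3a encodes a kinase of insulin and Wnt signalling, and Erf and Cic encode repressors that act downstream of the ERK kinase. Of the runs of 3 or more, those with the lowest median fold were the chromosome 9 block, at 1.66, and 3 peaks at chr17:39843187-39848661, at 1.62. There the authors' deposited table names Rn45s, the ribosomal RNA precursor. Density was highest on chromosome 7, with 63 peaks or 4.34 per 10 Mb, and on chromosome 17, with 4.22, and lowest on chromosome 19, with 1.30.

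The splicing genes with a saline peak had it at the start. Over all protein-coding genes 1.78% had a peak, and 0.868% had one at a start or an end with no listed start. Of 49 splicing genes, 4 had a peak (8.16%), each at the start and each overlapping a cocaine peak. They were Srsf10 at 4.97, Srsf2 at 4.66 and Srsf3 at 4.22, of the SR family that promotes exon inclusion, and Hnrnpa1 at 3.15, which often opposes it. The Hnrnpa1 peak also covered the start of Cbx5, a heterochromatin protein. The summit of the Srsf2 peak lay 231 bp from the start of the divergent gene Mfsd11. Of 55 histone modifiers, readers and remodelers, 4 had a peak (7.27%), namely Arid1b at 4.46, Kat7 at 4.36, Kat6b at 2.67 and Baz1b at 2.36. Sirt4, a mitochondrial sirtuin, at 4.14, was the 1 of 18 histone deacetylase and sirtuin genes with a peak. None of 17 genes of DNA methylation and demethylation had one. Lists of 17 and 18 genes are too short to set such counts apart from the share over all genes.

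Peaks at genes of glutamatergic synapses lay inside the genes. Of 43 genes of glutamate receptors and the postsynaptic density, 4 had a peak and none of the peaks was at a start. They were the AMPA receptor gene Gria3 at 5.22, the scaffolds Dlg4 at 5.09 and Dlg2 at 4.37, and the metabotropic receptor Grm7 at 3.68. The Dlg4 peak lay 2576 bp upstream of the listed start. Over all protein-coding genes the share with a peak was 1.78%, and 0.868% had one at a start or an end with no listed start. A longer gene offers more bases for a summit, and gene length was not corrected for here. Of 47 channel genes, the potassium channels Kcna1 at 5.25, Kcnd2 at 4.25, Kcnn2 at 3.97 and Kcnn3 at 3.76 had one. Of 65 genes of synaptic adhesion and axon guidance, Ptprs, Tenm1 at 4.57 and Nlgn2 at 2.71 did. Among 45 genes of medium spiny neurons and dopamine signalling, the retinoic acid receptor gene Rarb had a pair of peaks in its body, at 4.19 and 4.13. None of the 19 GABA-A receptor genes had a peak, and a list that short cannot set a count of 0 apart from the share over all genes. Among 31 AP-1 and activity-regulated genes, Dusp1 at 6.09 and Btg2 at 3.41 had one. The 58 marker genes of interneurons, astrocytes, oligodendrocytes, microglia and endothelial or ependymal cells had none, which allows a share of up to 5.17% when 3 counts are taken as the limit of a count of 0. Occupancy at a gene does not measure its expression, so these counts say nothing on which cells the nuclei came from.

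Gene families set the scale for these counts. Among zinc finger genes named Zfp, 10 of 397 had a peak (2.52%), with a median fold of 5.04, and 9 of the 10 peaks were at a start or an end. Ribosomal protein genes had 2 of 83 (Rps19 at 3.43 and Rpl10 at 2.63), solute carriers 4 of 375 and Tmem genes 4 of 238. No peak was found at 1110 olfactory receptor genes, 69 protocadherins or 646 immunoglobulin and T cell receptor segments, and 1 of 355 vomeronasal receptor genes, Vmn2r1, had a pair. MicroRNA genes had 6 of 1182, among them Mir124-2hg at 3.59, the host of a microRNA abundant in neurons. Family members resemble each other in sequence, which was not corrected for.

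The promoter windows with a saline peak held classical E2F sites more often than promoters in general, and CREs more often still. A saline peak overlapped 154 of the 21238 windows, which belong to 133 genes and 113 peaks. An 8-letter E2F site was found in 16 of the 154 (10.4%, interval 6.06 to 16.3), against 2.85% of all windows. The 7-letter cores TTCCCGC and TTGGCGC, on either strand, gave 20.8% against 8.69%. The CRE TGACGTCA was found in 32 (20.8%, interval 14.7 to 28.0), against 2.24% of all windows. One or both of the 8-letter E2F site and the CRE stood in 45 windows (29.2%), against 5.01% of all, and both in 3. In the other direction, most windows with a peak held neither sequence.

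The windows with a peak also differed from the rest in base composition. They were richer in CG dinucleotides, with a median of 21 against 13 over all windows, and had a median GC content of 59.8% against 56.3%. Among windows with at least 20 CG, the E2F site stood in 15.1% of the 86 with a peak, against 5.14% of all 7630 such windows, and the CRE in 26.7% against 3.92%. The GC box GGGCGG, the core of SP and KLF sites, stood in 77.9% of these windows with a peak against 81.4% of all windows of this kind. Windows were not matched on other features, and genes with several listed starts have several windows. The counts are descriptions and not evidence that a factor binds there.

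Other promoter elements were counted in the same windows. CCAAT, the box bound by NF-Y, was in 53.2% of windows with a peak against 38.2% of all windows, and the GC box in 64.9% against 46.2%. The ZNF143 core was in 5.84% (9 windows) against 1.46%, and the ETS site CCGGAAG in 15.6% against 11.6%. The AP-1 site TGANTCA was in 5.84% against 6.99%, and the NRF1 palindrome in 0.649% (1 window) against 1.33%. Among windows with at least 20 CG, the ETS and AP-1 differences had the opposite sign. The ETS site was in 16.3% of those with a peak against 20.3% of all such windows, and the AP-1 site in 5.81% (5 windows) against 2.74%. In that set CCAAT was in 44.2% against 33.7% and the ZNF143 core in 3.49% (3 windows) against 1.81%. The CTCF core was in none of the 154 and in 0.137% of all windows. All motifs were searched on both strands, and overlapping matches were kept.

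**Figure D4:**
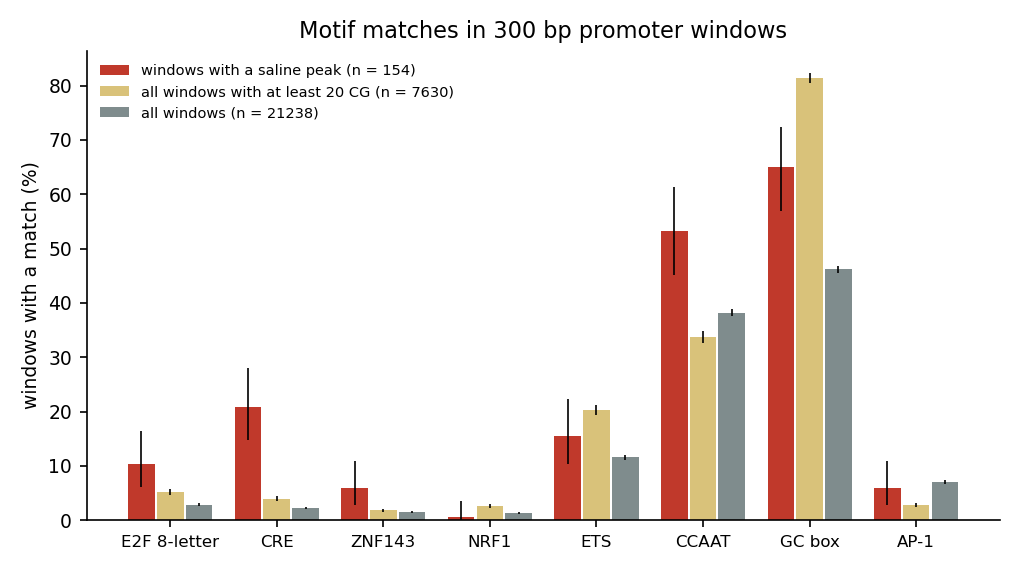
Share of 300 bp promoter windows that hold each motif, for the 154 windows with a saline peak, all 7630 windows with at least 20 CG and all 21238 windows, with exact 95% intervals as error bars. The CRE stands in 20.8% of windows with a peak, against 3.92% and 2.24% in the other sets, while the GC box is commonest in the set with many CG.

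Of the 16 windows with an E2F site and the 32 with a CRE, 3 held both. With sites as infrequent as these, a small overlap does not show that they mark different genes. E2F sites stood in the windows of Mcm5, Srsf10, Ppat, Mcm7 and its divergent neighbour Ap4m1, Kmt5c, a histone H4 methyltransferase, Ncapg2 of the condensin II complex, Ranbp1 and Trmt2a, Fam76b, Hnrnpul1, Atl3, Emsy, H2bc11 and H2ac11. CREs stood in those of 26 genes, among them Ptprs, Tiprl, Mcm5, Zwint, Ppp2ca, Celf3, Ywhah, Dusp1, Dusp8, Ppm1a, Ppp2r2d and Btg2. Of the 26, those that encode phosphatases or their subunits were Ptprs, Ppp2ca, Dusp1, Dusp8, Ppm1a and Ppp2r2d. The genes left unnamed add none, and the share of phosphatase genes over all windows was not counted. That grouping was made after the names were seen and was not tested. Of the 20 start peaks with the highest fold, 9 had a CRE in an overlapping window and 1, Mcm5, an 8-letter E2F site. Of the 112 start peaks that overlapped a window, the CRE was present at 24 and the E2F site at 12.

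The matches found in the windows mostly stood beside the summits. In the 32 windows with a CRE, the nearest one lay a median of 169.5 bp from the summit (interquartile range 148 to 194.5), and in 24 of the 32 the distance was 100 to 200 bp. At Ptprs the distance was 176 bp, at Zwint 149 bp, at Celf3 148 bp and at Ywhah 155 bp. For the E2F site the median was 145.5 bp, with 8 of 16 windows between 100 and 200 bp, and at Ranbp1 the site lay 1 bp from the summit. For CCAAT 35 of 82 windows and for the GC box 40 of 100 had that distance. The gene start itself lay a median of 229.5 bp from the summit in the 154 windows. Windows reach only 250 bases upstream and 50 downstream, which limits the distances that can occur. Many summits lay outside the window searched, as at Ptprs, 185 bp downstream of the start. A match on such a summit could not be found, so the distances do not show where sites lie relative to summits.

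Most saline peaks were also in the cocaine list. At least 1 bp was shared with a cocaine peak by 562 of the 725 (77.5%, interval 74.3 to 80.5), and 163 shared none. The peaks with the lowest fold did so most often under this 1 bp rule. With 50% reciprocal overlap, the median fold of shared minus unshared peaks was -0.13 in place of -0.70. Over the quartiles of fold on assembled chromosomes, the share was 92.6% in the lowest, 78.9% in the second, 68.0% in the third and 67.4% in the highest. It was also higher between genes, at 84.6%, than at gene starts, at 74.4%, and inside genes, at 66.8%. Peaks in the shared set were wider, with a median of 558 bp against 464 bp in the unshared set on assembled chromosomes. Their −log10 q was higher, with a median of 7.35 against 3.92 in the unshared set. The cocaine list is 3467 peaks long and 7 cocaine libraries are labelled, against 4 saline libraries. A missing overlap does not show that occupancy was lost.

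The 163 saline peaks without a cocaine overlap were spread over all positions in the assembled genome. At gene starts lay 34 of them, within 1 kb of an end with no listed start 9, inside genes 67 and between genes 53. After Scyl2 at 10.5, the highest folds were those inside Lrrc49 at 9.88, the intergenic peak nearest Manea at 6.94, the one nearest Cd180 at 6.86, and Thoc6 at 6.84. Lrrc49 encodes a leucine-rich repeat protein. Cyclin A2 (5.21), Gria3 (5.22), Prim2 (3.54), Btg2 (3.41) and H4c8 (2.11) were also in this set. In the promoter windows, the ETS site was in 11 of 29 windows of unshared peaks (37.9%, interval 20.7 to 57.7) and in 13 of 125 windows of shared peaks (10.4%, interval 5.65 to 17.1). The E2F site was in 2 of the 29 and 14 of the 125, and the CRE in 5 and 27. Several windows can overlap the same peak, as those of Daxx with an ETS site did. The intervals count such windows separately and are too narrow.

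The authors' deposited table of differential sites gave normalized counts of single libraries at some of the saline peaks, for 6 cocaine and 4 saline libraries without library names. It lists 956 sites, of which 474 (49.6%) had an adjusted p below 0.05 and were lower in cocaine and 473 (49.5%) were higher in cocaine. The sites were chosen by the authors on these same libraries, so the values below describe them and carry no test. Saline peaks overlapped 17 of the lower sites and 45 of the higher sites, and 63 of the 725 saline peaks (8.69%) overlapped at least 1 called site. The position differed between the directions. Of the 17 lower sites, 9 were at peaks at a gene start, 2 near an end with no listed start, 6 inside genes and none between genes. Of the 45 higher sites, none was at a gene start, 7 were inside genes and 38 between genes. Several of the 38 lay in the blocks of low fold and high −log10 q on chromosomes 9 and 14, and another at Rn45s. Positions were not counted over all lower and higher sites, so the split is not read as a trait of saline peaks.

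The lower sites included genes of signalling, chromatin and transcription. At Gsk3a, per the authors' deposited table, the normalized counts were 65.4, 65.5, 69.4, 40.2, 28.8 and 49.6 in the cocaine libraries, against 94.5, 93.5, 88.6 and 94.0 in the saline libraries. The highest cocaine library stood below the lowest saline library. The mean was 53.1 ± 16.4 in cocaine (SD, n = 6) and 92.6 ± 2.71 in saline (SD, n = 4), and the authors' deposited table gives a log2 fold change of -0.80. At H4c8 the cocaine libraries had 194, 137, 173, 154, 122 and 149, against 217, 214, 213 and 224 in the saline libraries, in the authors' deposited table. Here too the groups did not overlap, and the log2 fold change was -0.48 in the authors' deposited table. At Casp8ap2, whose product acts in histone gene expression, the cocaine libraries had 4.49, 3.12, 2.01, 7.78, 11.1 and 6.84, against 14.7, 12.7, 8.82 and 28.2 in the saline libraries of the authors' deposited table. The groups overlapped there, with the lowest saline library under the highest cocaine library, and the log2 fold change was -1.45 in the authors' deposited table.

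At Sp1, the gene of the GC box factor SP1, the saline libraries were close together and the cocaine libraries were not. In the authors' deposited table the cocaine values were 22.5, 23.9, 11.1, 35.0, 6.64 and 27.4, against saline values of 38.0, 35.0, 38.4 and 35.7. A single cocaine library reached the lowest saline value. At H2ac15 the cocaine mean was 88.7 ± 28.3 (SD, n = 6) and the saline mean 119 ± 8.80 (SD, n = 4), with overlapping groups, in the authors' deposited table. At Ppm1b, a phosphatase gene, the cocaine values 288 and 242 lay among or above the saline values of 220 to 248 in the authors' deposited table. Its log2 fold change there was -0.27. At Spag9, a scaffold of JNK signalling, the means were 11.7 ± 3.92 in cocaine (SD, n = 6) and 23.3 ± 3.83 in saline (SD, n = 4), and the highest cocaine value of 18.1 was below the lowest saline value of 19.0 in the authors' deposited table.

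**Figure D5:**
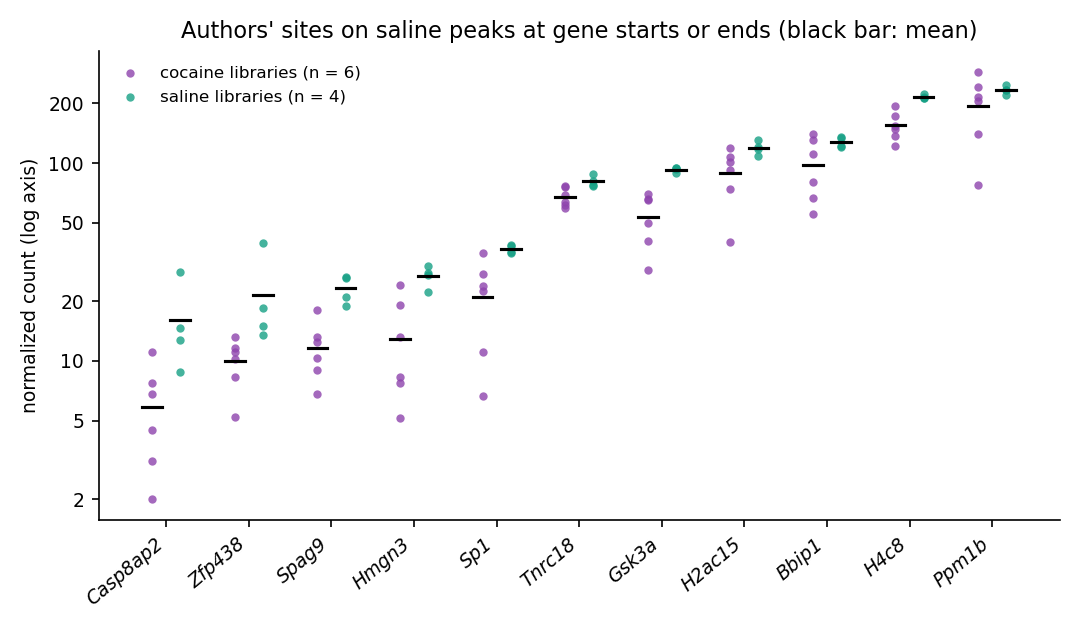
Normalized counts (log axis) of the 6 cocaine and 4 saline libraries at the 11 sites of the authors' deposited table that overlap a saline peak at a gene start or near an end, with black bars at the means. At Gsk3a the 6 cocaine libraries lie between 28.8 and 69.4, all below the saline libraries at 88.6 to 94.5.

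Across all lower sites on saline peaks, 7 of 17 (41.2%) had no overlap between cocaine and saline libraries in the authors' deposited table. Over all 956 listed sites, 23.8% were lower in cocaine and without overlap, and the share among the lower sites alone was 48.1%. Of the 45 higher sites on saline peaks, none was without overlap, against 5.65% of all listed sites that were higher and without overlap and 11.4% of the higher sites. The median log2 fold change was -0.80 at the 17 lower sites, against -1.135 over all lower sites, and 0.79 at the 45 higher sites, against 0.97 over all higher sites, all from the authors' deposited table. Saline enrichment in the authors' deposited table, over a background not given in the sources used here, had a median of 3.2 at the lower sites and 0.8 at the higher sites. The rule that took saline peaks used the saline libraries, so nothing is read from these counts.

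The cocaine libraries differed among themselves at these sites much more than the saline libraries did. The median coefficient of variation was 35.9% in cocaine and 8.55% in saline at the lower sites, and 61.1% in cocaine and 18.2% in saline at the higher sites, from the values in the authors' deposited table. At the higher sites the median normalized count was 41.7, 37.4, 59.4, 63.5, 113 and 137 in the cocaine libraries, against 46.7, 50.2, 47.6 and 56.4 in the saline libraries. The first 2 cocaine values lay below all saline values, and the last 2 stood far above the rest. At the lower sites the medians were 46.8, 52.0, 31.2, 35.0, 22.1 and 27.4 in the cocaine libraries, against 53.8, 57.9, 47.2 and 60.1 in the saline libraries, in the same order. The libraries with the highest medians at the higher sites thus had the lowest at the lower sites. The part of these 2 libraries in the differences was not tested.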

How the data were processed

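Per the labels' protocols, CUT&RUN was run on nuclei of the nucleus accumbens. The authors deposited narrowPeak lists, 1 for each treatment, called on females and males together. Its fold enrichment is a ratio over the caller's background, and its −log10 q is also the authors'. The authors also deposited a diffReps table (negative binomial), per the file headers, with log2 fold changes, p-values, an enrichment ratio and normalized counts (signal) per library. The build is mm10, per the submitters' processing notes. For the aligner, the settings of the caller and the role of IgG, details were not given in the sources used here. No total depth is given.

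The members and gene lists were chosen with earlier results of these data known. Peaks were placed by summit against RefSeq genes and promoter windows of GRCm38.p6 (Python 3.11.15, pandas 2.3.3, numpy 2.4.6, scipy 1.17.1). No genome was used, so motifs were searched in promoter windows in place of windows around summits. Placement, overlap and motif search were tested on simulated data. Named genes are the highest folds in each position class, members of fixed lists and called sites (adjusted p below 0.05) at gene starts. Groupings made after values were seen are named as such. Fold changes are cocaine over saline. No p-value was computed here.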

Additional observations from a re-analysis of the deposited data

How the results depend on the processing

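Of 45 alternative settings, 38 left the values described within counting error or within 1.5 times of a count. The share of peaks at a gene start, 19.0%, was 25.4% with starts within 5 kb. The share of saline peaks overlapping a cocaine peak, 77.5%, was 59.6% with 50% reciprocal overlap and 80.9% among peaks with q at or below 0.001. The median fold of shared minus unshared peaks, -0.70, was -0.13 with 50% reciprocal overlap. The share of promoter windows with a peak that held an E2F site, 10.4%, was 20.8% with the 7-letter cores. The sites of the authors' deposited table on saline peaks numbered 2 lower and 12 higher, in place of 17 and 45, where at least 50% of the site had to be covered. For these 7 values, the setting itself widens or narrows what is counted. The size of the fold difference between shared and unshared peaks thus depends on the overlap rule. Settings for the CRE, 1 count per gene and the stricter q in the motif search, and the stricter q and inclusion of unplaced peaks for shared minus unshared peaks, were chosen after seeing the data. Leaving out each saline library in turn moved the median saline normalized counts at the lower and at the higher sites by less than their spread. The planned motif search around summits and in whole peaks was not run. No paired analysis was possible because the peak lists are pooled and the library values carry no replicate numbers. Depth is not known, so no value says that a place without a peak is unoccupied.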
